A study of Homo sapiens with 12 samples.

Results

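The genes examined here encode the enzymes that write H3K4me3, the trimethyl mark on lysine 4 of histone H3, and the subunits those enzymes share. They were chosen by name: the catalytic subunits SETD1A, SETD1B, KMT2A, KMT2B, KMT2C and KMT2D and the core subunits WDR5, RBBP5, ASH2L and DPY30, 10 of the 20136 protein-coding genes annotated. For each gene the H3K4me3 and IgG peaks around its own start were read from every library. The cells were BON1, a human pancreatic neuroendocrine tumor line. Control BON1/TGL/pQ cells were compared with BON1/TGL/HA-Bcl-xL cells, which overexpress an HA-tagged form of Bcl-xL, an anti-apoptotic protein. All cells were grown with puromycin, and 500000 cells were used per condition. The mark was mapped by CUT&RUN, in which an antibody tethers a nuclease to chromatin and the released fragments are sequenced. A rabbit anti-mouse IgG gave the background. The 11 lists used comprised 5 H3K4me3 libraries, 3 of the control line (replicates 1, 2, 3) and 2 of the HA-Bcl-xL line (replicates 2, 3), with 3 IgG libraries per line. The first HA-Bcl-xL replicate with the H3K4me3 antibody is not used here. Nothing in the labels says whether replicates were separate cultures, so p-values measure only the spread between these samples.

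H3K4me3 marks the promoters of active genes and is laid down by the SET1/MLL (COMPASS) enzymes. SETD1A and SETD1B are the enzymes that trimethylate H3K4 at active promoters in general. KMT2A and KMT2B act at promoters of developmental and other CpG-rich genes, whereas KMT2C and KMT2D mainly monomethylate H3K4 at enhancers. Each enzyme needs the core module of WDR5, RBBP5, ASH2L and DPY30 for full activity.

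The peaks took up different kinds of sequence at different genes, and the stretches below show the contrast. Each is a run outside annotated UTRs whose every base lay under peaks in at least the stated number of H3K4me3 libraries, which need not be the same ones along the run, read from GRCh37 on the strand of the gene, with CpG dinucleotides in capitals. Positions count from the 5′ end, the most upstream annotated base of the gene, and are negative before it. RBBP5 (chr1:205091459-205091633, minus strand, all 5 libraries, from −490 to −316 bp) and DPY30 (chr2:32264875-32264952, minus strand, 4 libraries, from −78 to −1 bp) are CpG-containing promoter sequence. The KMT2B stretch (chr19:36207941-36208024, plus strand, 4 libraries) lies from −934 to −851 bp.
RBBP5: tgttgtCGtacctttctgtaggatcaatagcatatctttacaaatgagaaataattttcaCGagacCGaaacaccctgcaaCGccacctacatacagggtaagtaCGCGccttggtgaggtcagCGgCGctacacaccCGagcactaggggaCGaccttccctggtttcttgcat
DPY30: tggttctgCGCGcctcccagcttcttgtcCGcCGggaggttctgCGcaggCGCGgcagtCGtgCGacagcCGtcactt
KMT2B: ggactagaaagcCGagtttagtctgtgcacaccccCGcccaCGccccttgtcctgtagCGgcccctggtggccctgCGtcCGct

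At WDR5 and KMT2C the marked sequence held few CpGs. The WDR5 stretch (chr9:137000078-137000291, plus strand, at least 3 libraries at each base, from −409 to −196 bp) has 2 CpGs in 214 bases. The KMT2C stretch (chr7:152131384-152131509, minus strand, all 5 libraries, in an intron from 2220 to 2345 bp) has 1 CpG in 126 bases. The 200 bases just before the KMT2C start (chr7:152133730-152133929) hold 28 CpGs, and no library had a peak there.
WDR5: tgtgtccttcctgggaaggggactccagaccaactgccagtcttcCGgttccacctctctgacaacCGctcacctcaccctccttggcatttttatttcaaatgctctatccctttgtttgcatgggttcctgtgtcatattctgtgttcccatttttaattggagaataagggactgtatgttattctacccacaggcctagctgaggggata
KMT2C under peaks: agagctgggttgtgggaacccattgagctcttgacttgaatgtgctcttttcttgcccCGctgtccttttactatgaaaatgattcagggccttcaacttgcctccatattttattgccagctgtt
KMT2C before the start: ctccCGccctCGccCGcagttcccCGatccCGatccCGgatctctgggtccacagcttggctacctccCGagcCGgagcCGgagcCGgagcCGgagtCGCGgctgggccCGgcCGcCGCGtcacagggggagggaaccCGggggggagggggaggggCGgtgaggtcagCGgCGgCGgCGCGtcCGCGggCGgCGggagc

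The H3K4me3 lists differed in length and depth before any gene was examined. On chromosomes 1 to 22, X and Y they held 10247 to 17711 peaks in the control line and 15497 and 16379 in the HA-Bcl-xL line. Control replicate 3 had the shortest list and the lowest depth, with a lowest solved background of 0.0478 fragments per base against 0.0659 to 0.0705 in the other 4. The IgG lists held 1674 to 2113 peaks in the control line and 244 to 268 in the HA-Bcl-xL line. Peaks within 2.5 kb of the start in all 5 H3K4me3 libraries were found at 5 of 14 neuroendocrine markers (CHGB, SCG2, SCG3, INSM1 and NEUROD1) and at 3 of 4 epithelial markers, beside 25.6% of all genes. The neuroendocrine markers SCG5 and NKX2-2 had no such peak in any H3K4me3 library. None of 4 immune markers and neither of the 2 endothelial markers annotated had such a peak in any H3K4me3 library, and 1 of 3 fibroblast markers had one in at least 1.

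Most writer genes carried the mark near the start in most libraries, and none carried an IgG peak within 10 kb of it. Within 1 kb of the 5′ end 8, 7 and 4 of the 10 genes had an H3K4me3 peak in control replicates 1, 2 and 3. Of all protein-coding genes, 40.4%, 32.4% and 28.2% did in the same 3 libraries. In the HA-Bcl-xL line the count was 8 of 10 in each library, beside 38.1% and 36.5% of all genes. The low count of control replicate 3 set the group means apart: 6.33 ± 2.08 (SD, n = 3) in the control line and 8 ± 0 (SD, n = 2) in the HA-Bcl-xL line. The difference of 1.67 genes was no larger than the pooled SD of 1.70, and control replicate 1 had as many marked genes as either HA-Bcl-xL library. Without control replicate 3 the difference was 0.5 genes. With each list cut to the 10247 peaks of the shortest, the counts were 8, 7 and 4 in the control line and 6 and 8 in the HA-Bcl-xL line, beside 28.2% to 30.8% of all genes. A plot of these counts sets the genes beside all protein-coding genes.

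**Figure D1:**
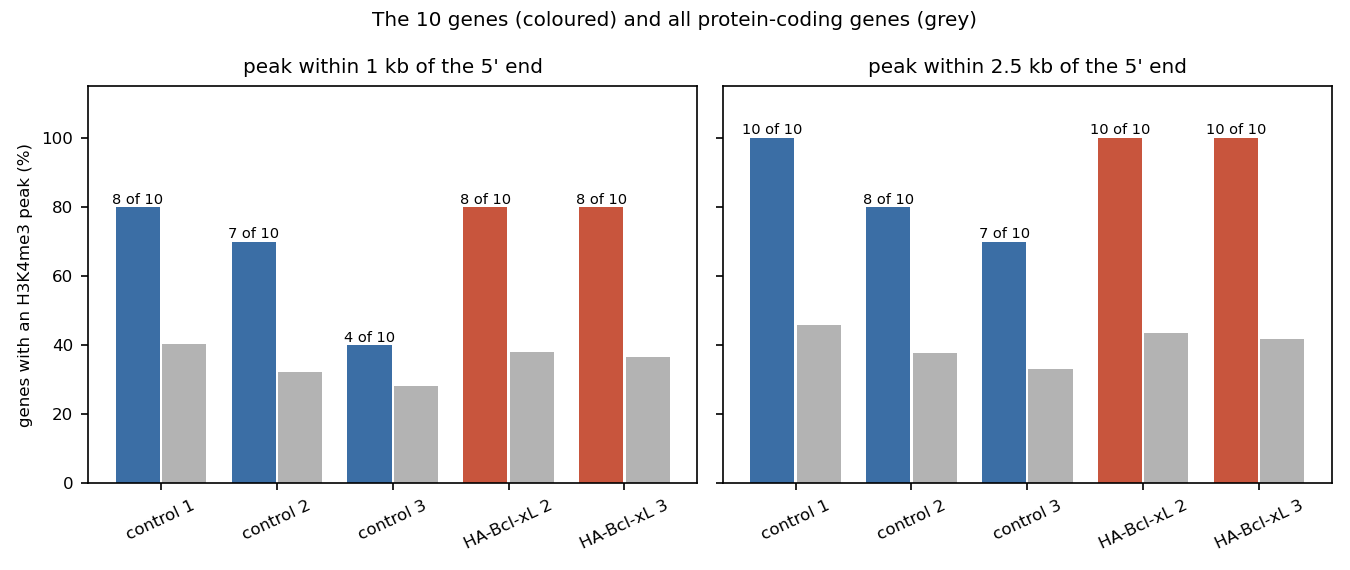
Percent of genes with an H3K4me3 peak within 1 kb (left) and 2.5 kb (right) of the 5′ end in each H3K4me3 library. Coloured bars are the 10 writer genes (blue control, red HA-Bcl-xL, counts above the bars) and grey bars are all 20136 protein-coding genes; control replicate 3 is lowest in both.

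Genes with a peak within 1 kb in all 5 H3K4me3 libraries were SETD1A, RBBP5 and ASH2L, 3 of 10, against 21.3% of all genes. KMT2A, KMT2B and DPY30 had one in every library but control replicate 3, and WDR5 in every library but control replicate 2. KMT2D had one in control replicate 1 and both HA-Bcl-xL libraries, SETD1B in control replicate 2 alone, and KMT2C in no library. No writer gene was marked in every HA-Bcl-xL library and in none of the control line (0.844% of all genes), and none had the opposite pattern (0.248%). Within 2.5 kb all 10 genes had a peak in control replicate 1 and in both HA-Bcl-xL libraries, 8 in control replicate 2 and 7 in control replicate 3. The shares of all genes at 2.5 kb were 45.8%, 37.8% and 33.0% in control replicates 1, 2 and 3, and 43.4% and 41.8% in the HA-Bcl-xL libraries. SETD1A, SETD1B, KMT2A, KMT2C, RBBP5 and ASH2L were then marked in all 5 libraries, 6 of 10 beside 25.6% of all genes. Within 10 kb it was 7 of 10 beside 29.7%, the seventh being KMT2D, and within 10 kb of any annotated transcript start 8 of 10 beside 33%. In the 6 IgG libraries, 0 of the 10 genes had a peak within 10 kb. Of all genes, 4.47% had one in at least 1 library, so 0 of 10 does not set the writer genes apart.

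The peaks rested on few fragments. The fold and the −log10 p of each deposited peak can be solved for a whole number of fragments at the summit, and this worked for 94 of 94 peaks within 10 kb of these genes, to within 0.001 in −log10 p. The 72 with a summit within 2.5 kb had 7 to 31 fragments, with a median of 14. Where a library has no peak, the mark was not detected there, which does not show that it was absent. Within 2.5 kb, missing peaks occurred in control replicate 3, with the lowest solved background, and in control replicate 2, with the highest (0.0705), and the part of depth in them was not tested.

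**Figure D2:**
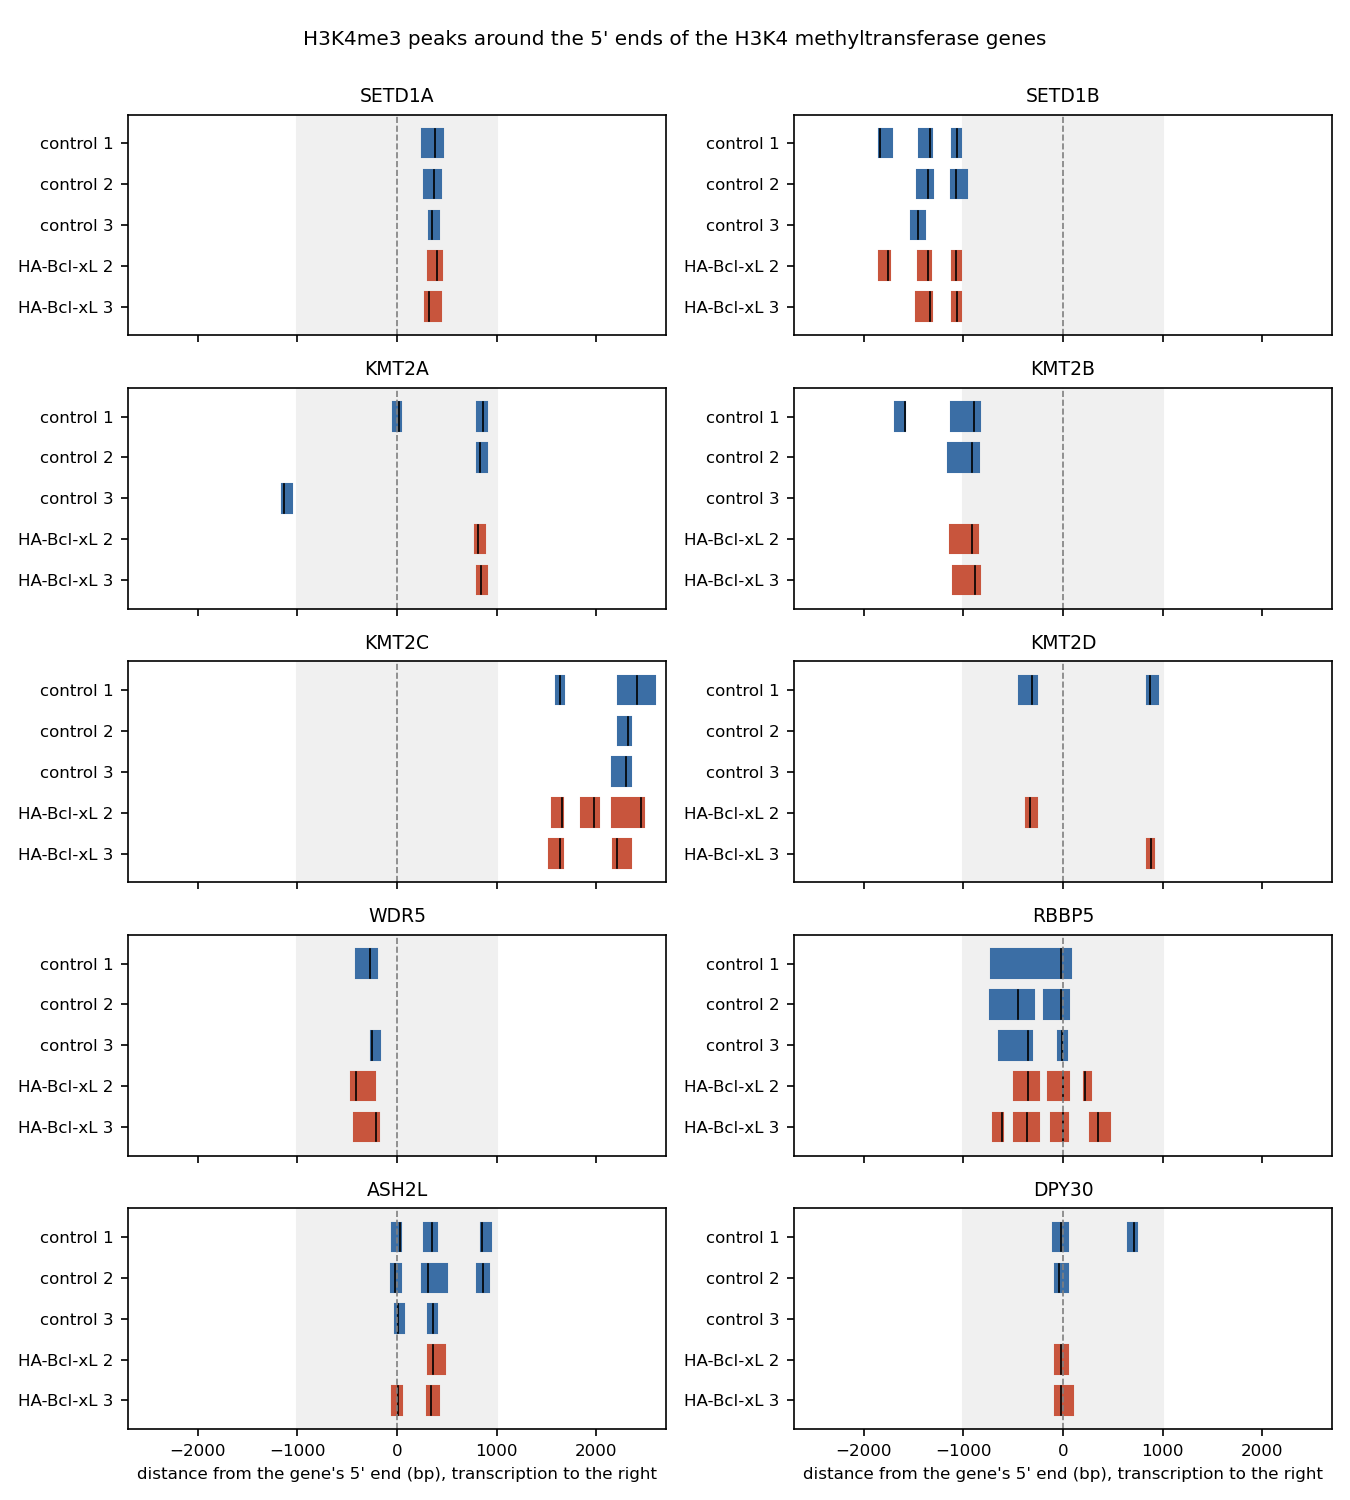
H3K4me3 peaks around the 5′ end of each of the 10 genes, with 1 row per library (blue control, red HA-Bcl-xL). The x axis is the distance from the 5′ end in bp with transcription to the right, black ticks are peak summits, and the shaded band is the 1 kb window. RBBP5 and DPY30 peaks sit on the start, and those of KMT2C lie inside the gene beyond the shaded band in every library.

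SETD1A and SETD1B, the general enzymes of promoter H3K4me3, differed in where the mark was called. SETD1A (chr16:30968615-30995985, plus strand) had a single peak near its start in each library, with summits 321 to 403 bp after the 5′ end, in the annotated UTR. Measured from the nearest annotated transcript start, those summits lay from −139 to −57 bp. The peaks of SETD1A covered 214, 172 and 109 bases within 2.5 kb in the control line (replicates 1, 2 and 3) and 140 and 163 in the HA-Bcl-xL line (replicates 2 and 3). The HA-Bcl-xL values lie inside the control range. A lncRNA starts at −95 bp on the opposite strand, and its mark cannot be told apart from that of SETD1A. Further peaks, about 8.2 kb upstream in all 5 libraries, lie at the start of ORAI3, a calcium channel gene.

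SETD1B (chr12:122241915-122270562, plus strand) had no summit within 1 kb of its 5′ end. Its nearest summits lay from −1456 to −1062 bp, inside the neighbouring genes RHOF and LINC01089. RHOF starts at −606 bp on the opposite strand, and LINC01089 at −103 bp. The mark there cannot be told apart from the mark of these neighbours. Bases under peaks within 2.5 kb of SETD1B were 360, 321 and 143 in the control line and 329 and 252 in the HA-Bcl-xL line, again overlapping. A separate peak in an intron of SETD1B, 8571 to 8599 bp after the 5′ end, was called in every H3K4me3 library but control replicate 2.

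KMT2A and KMT2B encode the related MLL1 and MLL2 enzymes. At KMT2A (chr11:118307171-118397547, plus strand) the peak lay 816 to 864 bp after the 5′ end in 4 libraries, 80 to 128 bp beyond an annotated alternative transcript start. Control replicate 1 had a second peak at 15 bp, and control replicate 3 had only one at −1133 bp, near the start of an opposite-strand lncRNA at −1250 bp whose mark cannot be told apart from that of KMT2A. That peak puts KMT2A among the genes marked within 2.5 kb in all 5 libraries and in the width test. Bases under peaks at KMT2A were 179, 102 and 101 in the control line and 100 and 99 in the HA-Bcl-xL line. The nearest values of the lines, 100 and 101, differ by a single base.

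At KMT2B (chr19:36208875-36229781, plus strand) the summit lay from −911 to −883 bp in 4 libraries, in sequence between annotated genes. The run marked in all 4 spans 250 bases, of which 84 lie outside annotated UTRs. As this run is upstream of KMT2B, its UTR part belongs to another gene, whose mark cannot be told apart. Peaks covered 401, 306 and 0 bases in the control line and 286 and 269 in the HA-Bcl-xL line. Control replicate 3 was the library without a peak, and the HA-Bcl-xL values lie inside the control range. These 4 peaks rested on 27, 14, 17 and 15 fragments at the summit. The 401 bases of control replicate 1 include a second peak at −1586 bp, in an intron of ZBTB32, with 11 fragments.

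KMT2C and KMT2D are the enhancer-associated enzymes. KMT2C (chr7:151832007-152133729, minus strand) is the longest of the 10 genes at 301.723 kb, and it was the 1 gene with no peak within 1 kb in any library. Its peaks lay in an intron, with nearest summits 1631 to 2316 bp after the 5′ end. They covered 359, 129 and 193 bases within 2.5 kb in the control line and 625 and 321 in the HA-Bcl-xL line. Control replicate 1 lies above HA-Bcl-xL replicate 3, so the groups overlap. FABP5P3, a transcribed pseudogene, starts at 949 bp on the opposite strand, and its mark cannot be told apart from that of KMT2C. KMT2C also carries a sequence copy: of the 32-base runs within 2.5 kb of its 5′ end, 63.6% occur once in GRCh37, and the others match a 4.614 kb stretch at chr22:17079815-17084428. Under the KMT2C peaks 26.7 to 73.2% of runs occur once, and under the peaks of the other 9 genes 100%. No library had a peak on the copy. How reads that match both places were assigned is not given in the sources used here, so KMT2C values are uncertain.

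KMT2D (chr12:49412758-49454577, minus strand) had the shortest mean marked length, with no peak within 2.5 kb in 2 of the 5 libraries. Within 2.5 kb its peaks covered 286, 0 and 0 bases in the control line and 114 and 73 in the HA-Bcl-xL line. Summits lay at −311 bp in control replicate 1 and −333 bp in HA-Bcl-xL replicate 2, and at 872 bp in control replicate 1 and 879 bp in HA-Bcl-xL replicate 3. The 5 libraries did share a peak with its summit between −8933 and −8911 bp, in RHEBL1, a gene for a Ras-like GTPase that starts at −9231 bp.

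**Figure D3:**
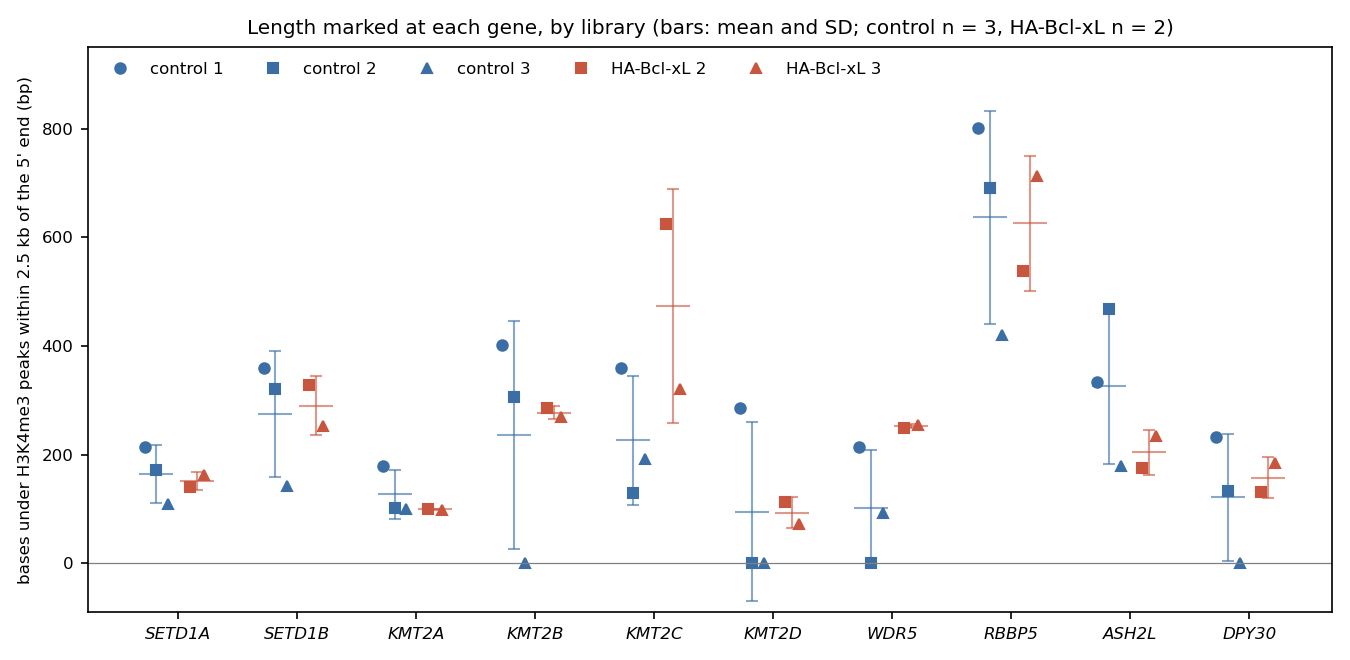
Bases under H3K4me3 peaks within 2.5 kb of the 5′ end of each gene (y axis, bp), with 1 point per library and bars for the mean and SD (blue control, n = 3; red HA-Bcl-xL, n = 2). RBBP5 has the highest mean.

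The core subunits were marked at or close to the start. WDR5 (chr9:137000487-137025090, plus strand), the histone-tail-binding scaffold of the module, had summits from −409 to −214 bp in the 4 libraries with a peak. Its peaks covered 214, 0 and 92 bases in the control line and 250 and 255 in the HA-Bcl-xL line. The peaks lie in an intron of the opposite-strand lncRNA WDR5-DT, which starts at 407 bp, and its mark cannot be told apart from that of WDR5. As control replicate 2 had no WDR5 peak, the gene was not in the main width test. RBBP5 (chr1:205055270-205091143, minus strand), which activates the catalytic subunit together with ASH2L, had a summit between −21 and 2 bp in every library. RBBP5 peaks covered 801, 690 and 420 bases in the control line and 538 and 713 in the HA-Bcl-xL line.

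ASH2L (chr8:37963011-38001594, plus strand) had up to 3 peaks a library within 1 kb, with nearest summits between −20 and 364 bp. They covered 333, 468 and 180 bases in the control line and 175 and 234 in the HA-Bcl-xL line. One of the ASH2L values in the HA-Bcl-xL line was below all 3 control values and the other was not. DPY30 (chr2:32092878-32264874, minus strand), the small subunit that binds ASH2L, had summits from −45 to −17 bp in 4 libraries. DPY30 peaks covered 232, 133 and 0 bases in the control line and 131 and 184 in the HA-Bcl-xL line. An annotated lncRNA starts at −34 bp from DPY30 on the opposite strand, and its mark cannot be told apart from that of DPY30.

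By mean marked length over the 5 H3K4me3 libraries RBBP5 came first with 632 ± 152 bases (SD, n = 5), followed by KMT2C with 325 ± 192, SETD1B with 281 ± 86.6, ASH2L with 278 ± 124 and KMT2B with 252 ± 150. WDR5 (162 ± 112), SETD1A (160 ± 39.0), DPY30 (136 ± 86.7), KMT2A (116 ± 35.1) and KMT2D (94.6 ± 118) were shorter. The library ranges of each adjacent pair in this order overlap. The 5151 genes with a peak within 2.5 kb in all 5 libraries had a median of 256.2 bases. RBBP5 was longer than 97.8% of them, SETD1A longer than 14.2% and KMT2A longer than 2.504%.

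No writer gene passed the test for a difference in marked length between the lines. The test was limma on log2 of the bases under peaks within 2.5 kb, each library centred on its median, across the 5151 genes. It called 0 of 5151 genes (0%) at an adjusted p of 0.05, and 269 (5.22%) had an unadjusted p under 0.05. Without HA-Bcl-xL replicate 2 it called 2 genes and without HA-Bcl-xL replicate 3 it called 3, none of them a writer gene. Of the 6 writer genes in it, 2 were higher and 4 lower in HA-Bcl-xL, with a median log2 difference of −0.15 beside −0.02 over all genes tested. KMT2C was 0.99 higher on the log2 scale (SE 0.45, adjusted p = 0.931, limma with Benjamini-Hochberg adjustment), beyond the 95th percentile of all genes at 0.75. It was 0.56 without HA-Bcl-xL replicate 2 and 0.69 without control replicate 2. With all 5 libraries the unadjusted p of KMT2C was 0.0423, and 4.45% of the genes tested had a smaller one. ASH2L was lower by a log2 difference of −0.70 (SE 0.45, limma adjusted p = 0.987), which was −0.36 without control replicate 2 and −0.44 without HA-Bcl-xL replicate 2. KMT2A was lower by −0.42 (SE 0.41, limma adjusted p = 0.996). SETD1A (−0.19), RBBP5 (−0.11) and SETD1B (0.06) were within 1 SE of 0, and the sign of each turned under at least 1 other setting. KMT2B, KMT2D, WDR5 and DPY30 lacked a peak in at least 1 library and were not in this test. A fit of genes with a peak in at least 2 libraries, on log2(bases + 100), took them in and called no gene. There WDR5 was 0.82 higher (SE 0.44, limma adjusted p = 0.892), KMT2B 0.33, DPY30 0.24 and KMT2D 0.16. Without control replicate 3, which had no peak at either gene, KMT2B (−0.26) and DPY30 (−0.10) had the opposite sign, as did KMT2D (−0.37) within 10 kb, a window that takes in the RHEBL1 peaks. The median SE over all genes was 0.44, and a difference of the size seen at KMT2C did not pass the adjustment in this design.

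**Figure D4:**
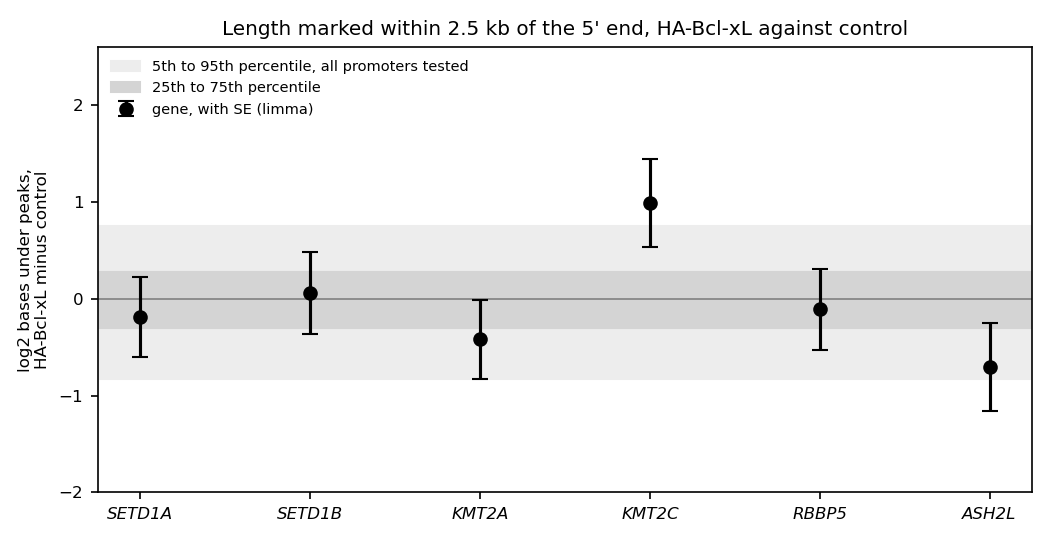
Difference in log2 bases under H3K4me3 peaks within 2.5 kb, HA-Bcl-xL minus control (y axis), for the 6 writer genes with a peak in all 5 libraries. Points are limma estimates with SE, and grey bands give the middle 50% and 90% of 5151 genes; KMT2C at 0.99 lies above the wider band.

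At these 10 genes the position of the mark, measured from the 5′ end, went with the base composition of the start. SETD1B, KMT2A, KMT2B and KMT2C lie in the highest of 10 GC classes of all genes (deciles) by GC content within 500 bp of the 5′ end, at 77.2%, 75.7%, 79.6% and 72.3%. These were also the 4 genes whose median nearest summit lay more than 800 bp from the 5′ end. From the nearest annotated transcript start the median was 80 bp at KMT2A and 715 bp at KMT2C, so that only SETD1B and KMT2B remained beyond 800 bp. The SETD1B summits lie inside neighbouring genes, and the KMT2C values are uncertain because of its sequence copy. The other 6 genes, with 52.6% to 66.7% GC, had median nearest summits within 371 bp. The peaks of the 4 GC-rich genes lay over poorer sequence, with a median GC of 38.2% at SETD1B, 45.7% at KMT2C, 58.5% at KMT2A and 61.5% at KMT2B. These 4 genes were grouped by GC-rich starts and distant summits, so poorer sequence under their peaks follows in part from that grouping. The density of CpGs was 1.92 per 100 bases under KMT2C peaks and 14.1 around the KMT2C start, and 1.21 against 11.99 at SETD1B. WDR5, at 62.5% GC around the start, also had peaks over poorer sequence, with a median of 48.1% GC and 0.740 CpGs per 100 bases against 5.89 around the start. At SETD1A the density was higher under the peaks, 10.0 against 6.59, as at DPY30, 9.71 against 4.90. It was 9.06 against 8.49 at ASH2L, 7.19 against 7.99 at KMT2D and 4.71 against 4.90 at RBBP5.

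Across all protein-coding genes, distant summits were more frequent at both ends of the GC range. In the highest GC decile, 22.8% of nearest summits lay within 250 bp of the 5′ end and 40.5% beyond 800 bp, and 31.2% of genes had a peak within 1 kb on average over the 5 libraries. In decile 6, which holds SETD1A, those shares were 58.9%, 14.5% and 48.6%. In the lowest decile, which holds none of the 10 genes, they were 25.4%, 51.2% and 4.06%. The GC relation is a description over gene and library pairs that share libraries, and the part of GC content in amplification, alignment or peak calling was not tested.

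**Figure D5:**
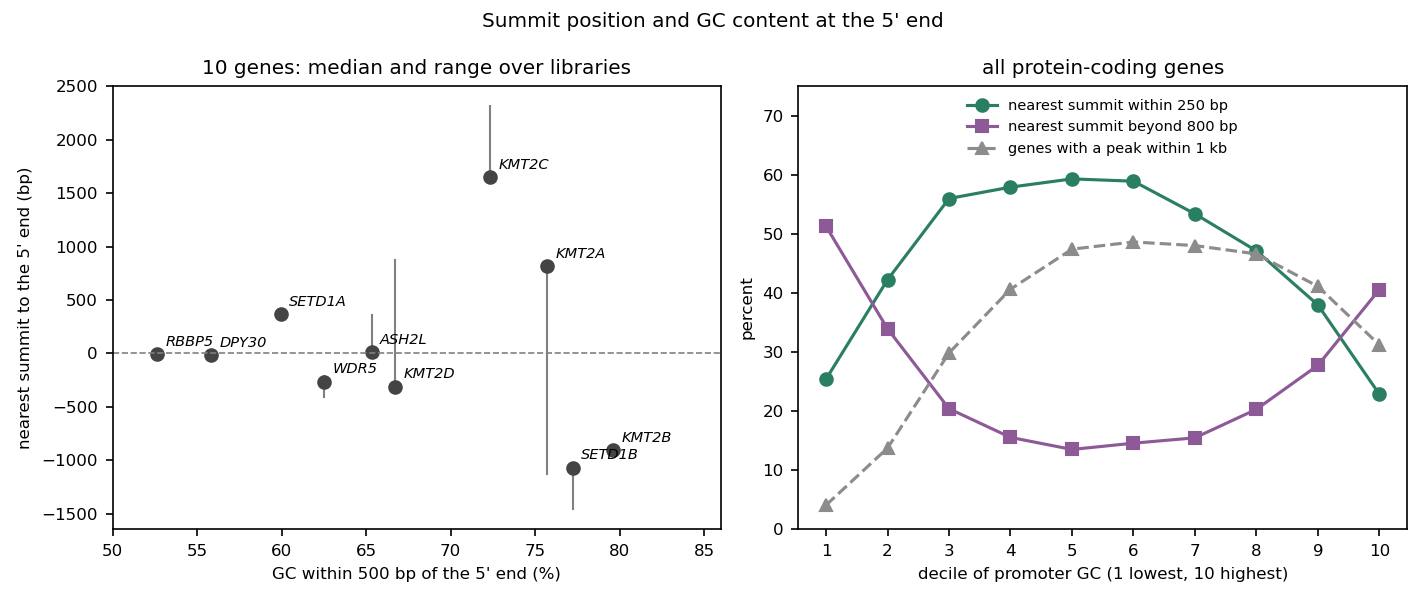
Left, position of the nearest H3K4me3 summit relative to the 5′ end (y axis, bp) against GC within 500 bp of it (x axis, %) for each writer gene, as the median (point) and range (line) over libraries. Right, percent of nearest summits within 250 bp and beyond 800 bp, and percent of genes with a peak within 1 kb, by decile of GC content over all genes. Measured from the 5′ end, the 4 genes above 70% GC sit farthest from 0; from the nearest annotated transcript start the KMT2A median is 80 bp.

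Farther inside the genes, peaks were few. KMT2C had an H3K4me3 peak 152558 bp after its 5′ end in control replicate 1 and 152575 bp after it in control replicate 3, and none beyond 10 kb in the HA-Bcl-xL libraries. DPY30 had one at 30538 bp in control replicate 3 and at 30542 bp in HA-Bcl-xL replicate 2, and 2 beyond 10 kb in control replicate 1. The annotated DPY30 gene spans 171.997 kb, and whether other genes start near these far peaks was not examined. The IgG peaks inside these genes were 1 in KMT2C, at 29522 bp in control replicate 3, and 1 in RBBP5, at 25456 bp in control replicate 2. The other 7 genes had no peak inside the gene beyond 10 kb in any of the 11 libraries.

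Of 6 promoter motifs searched, 1 was present at any of the 10 genes. In the 300 bases from 250 before to 50 after the 5′ end, on either strand, the ETS core CCGGAAG was in none of the 10 and in 11.8% of all promoters. The TATA box TATAAA was in none of the 10 and in 10.9% of all, and the NF-Y box CCAAT was in WDR5 alone and in 35.8% of all. The NRF1, YY1 and ZNF143 motifs were in none of the 10, and in 1.26%, 1.27% and 0.283% of all promoters.

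The other genes of the pathway were read in the same way, within 1 kb of the 5′ end. Of 12 subunits found in some of the complexes and not others, 5 had a peak in all 5 H3K4me3 libraries: MEN1, which encodes menin and joins KMT2A and KMT2B, WDR82, a SETD1 subunit, BOD1, and PAXIP1 and PAGR1, which join KMT2C and KMT2D. KDM6A, the H3K27 demethylase of the KMT2C and KMT2D complexes, had none within 1 kb in any library. Of 5 H3K4 demethylases 3 were marked in all 5 libraries, of 14 H3K4me3 readers 6, and of 15 methyltransferases of other histone lysines 2, beside 21.3% of all genes. SPIN1, a reader of H3K4me3, was marked in 2 of 2 HA-Bcl-xL and 0 of 3 control libraries. It was the 1 gene of these lists with that pattern, which 0.844% of all genes showed.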

How the data were processed

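CUT&RUN libraries of control and HA-Bcl-xL BON1 cells were deposited as narrowPeak lists, 1 per library. The submitters' processing notes name bcl2fastq 2.20, Trimmomatic 0.36, Bowtie2 2.2.9, MACS2 2.1.1, deepTools 3.5.1 and build hg19, without roles. Each deposited peak carries the authors' score, fold enrichment, −log10 p and −log10 q, and no list held a q-value above 0.01. They were used within a list, and the fragments and lowest background solved from fold and −log10 p as relative depth between lists. Peaks of chromosomes 1 to 22, X and Y only were compared with GRCh37 with GENCODE release 44, and a gene had a peak with at least 1 bp in the window. Sequences were read from GRCh37 (pysam 0.24.0). Counts of genes with a peak have no test, and marked lengths were compared by limma 3.58.1 (R 4.3.3) with Benjamini-Hochberg adjustment. Other steps used Python 3.11.15, numpy 2.4.6, pandas 2.3.3, scipy 1.17.1 and matplotlib 3.10.9. The window, fragment and width steps were tested on simulated data.

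All 10 genes are named, ordered by role. Genes of the other lists are named where all libraries of 1 line and none of the other had a peak within 1 kb, where they passed the width test, or, for complex subunits, where all or no libraries had one. The members and lists were chosen with earlier results of these data known. The search for sequence copies and the depth values were added after seeing the data. Alternatives were other windows, any transcript start, a stricter −log10 q (5 or more), lists of equal length, summits only, removal of peaks overlapping IgG peaks, other centring, a replicate block, and each library left out in turn. Fragment numbers cover counting only, since copies made by PCR are not independent molecules.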

Additional observations from a re-analysis of the deposited data

How the results depend on the processing

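The difference of 1.67 marked genes between the lines stayed positive under each other window, threshold and left-out library tried, from 0.5 without control replicate 3 to 2.5 without control replicate 1. It was 0.667 with equal list lengths and within 10 kb of any transcript start. Over all protein-coding genes the mean count was also higher in HA-Bcl-xL at each window. That difference was 734 genes within 1 kb of the 5′ end and 927 within 10 kb of any transcript start. All settings reuse the same lists, so the constant sign is not particular to the writer genes. No writer gene had an IgG peak at any window, so the excess of H3K4me3 over IgG was the H3K4me3 count itself. That count cannot fall as a window widens. It was 6.33 genes in the control line and 8 in the HA-Bcl-xL line. Within 2.5 kb of the 5′ end or of any transcript start it was 8.33 and 10. It was 9 and 10 within 10 kb, and 9.33 and 10 within 10 kb of any start. At that last window 2.55% to 3.41% of all genes had a peak in each control IgG library. In the HA-Bcl-xL IgG libraries 0.363% to 0.462% did, so the lack of IgG peaks at 10 genes says little. The median distance of the nearest summit was 341 bp, and 177 bp from the nearest annotated transcript start.

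The width test called 0 genes at every setting except 3. Only 2 replicate numbers are shared by the lines, and same-numbered libraries deviated together weakly across genes (r of 0.0045 and 0.030), so the numbers are not taken as pairs. The replicate block called 2 genes, GNB1 and ETV5. Without one library the count was 0 to 3: 2 (GNB1 and ETV5) without HA-Bcl-xL replicate 2, and 3 (GNB1, ABL1 and ENSG00000288570) without HA-Bcl-xL replicate 3, with the lone library assumed to vary like the control line. These genes were named after their values were seen, and the cause was not tested. Without centring the median log2 difference of all genes was 0.10 and 60.01% were higher in HA-Bcl-xL, against 48.5% with it. Centring on the total covered length gave −0.11 and 40.5%.

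No writer gene passed at any setting that could be fitted to it. ASH2L (12 settings, −0.97 to −0.36), KMT2A (11, −0.52 to −0.30) and KMT2C (13, 0.56 to 1.42) kept their direction at those settings. ASH2L and KMT2A had no value with the stricter −log10 q or equal lists, nor KMT2A and KMT2C within 1 kb, because a library then lacked a peak. SETD1A turned to 0.34 within 10 kb, a window that takes in the peaks at ORAI3, and without one library it ranged from −0.36 (without HA-Bcl-xL replicate 3) to −0.03 (without HA-Bcl-xL replicate 2). SETD1B turned to −0.027 with a peak in at least 2 libraries, −0.028 with total-length centring, −0.63 with a −log10 q of 5 or more and −0.12 with lists of equal length, and without one library it ranged from −0.16 to 0.26. RBBP5 turned to 0.011 without centring, and without one library it ranged from −0.37 to 0.15. Peaks of 7 to 31 fragments and 2 libraries in one group limit what these lists can show.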
